A study of Mus musculus with 8 samples.

Results

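Monocyte and macrophage genes were followed in RNA sequencing libraries of mouse bone marrow neutrophils. The genes are 31 listed symbols, taken as the rows of the count table that carry those names, and all 31 were found among the 24421 genes of the table. Neutrophils of 8-week-old C57BL/6 mice were isolated magnetically from WT animals or from Padi4 KO animals, a line made by deleting exon 1 of Padi4 on the same background. The product of Padi4 citrullinates proteins, histones among them. The cells were left unstimulated or received R848, an agonist of Toll-like receptor 7, at 1 µg/ml for 6 h in culture. The 4 groups (WT unstimulated, WT with R848, Padi4 KO unstimulated, Padi4 KO with R848) held 2 libraries each. The sample titles give 0 h for the unstimulated cells and the protocol gives 6 h, so each R848 response may also contain the effect of the culture. The labels do not say whether the 2 libraries of a group came from separate mice, so the p-values measure the spread between these libraries, which may be technical.

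Monocytes and macrophages are the other main phagocytes of the myeloid lineage. They share early progenitors with neutrophils, grow under the control of the receptor for macrophage colony-stimulating factor, and carry surface and lysosomal proteins by which they are told from granulocytes. Classical monocytes leave the marrow through the chemokine receptor Ccr2, patrolling monocytes carry the fractalkine receptor Cx3cr1, and resident macrophages of the marrow engulf dying cells and support red cell formation. Some of these genes are also transcribed in neutrophils or can be induced in them by Toll-like receptor ligands. In bulk libraries of this kind, fewer cells of a type and less RNA per cell cannot be told apart.

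Each library held between 562446 and 1177972 counts on genes, so that 3 counts, the number up to which a gene was read as at the floor, correspond to 2.55 to 5.33 CPM (counts brought to the same library size). Padi4 itself had 590 and 527 counts in unstimulated WT libraries and 166 and 234 after R848, against 40 and 54 and then 34 and 21 in Padi4 KO. The markers of the labelled cell type were abundant, with S100a9, S100a8 and Ngp as the most abundant of the 17 neutrophil markers in the table and between 26914 and 44553 counts of S100a9 in each library. All 31 genes passed the filter, 1 count or more in 2 or more libraries, and 21 had at least 10 counts on average. Levels are given as CPM scaled with TMM factors, first and second library of a group in that order. Ratios and bounds from summed counts use library totals without TMM factors, and an adjusted p beside them comes from the fit with TMM factors. Differences are log2 fold changes with their standard errors (SE). They were tested with the quasi-likelihood test of edgeR, and every adjusted p is a Benjamini-Hochberg value over all 12254 genes tested. A response to R848 was called when the adjusted p was under 0.1 and the level moved by over 2-fold, and a difference between genotypes when the adjusted p was under 0.1.

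R848 raised some of these genes and lowered others, in both genotypes. In WT, 9 genes rose and 5 fell, where 7.18% of all genes tested rose and 10.8% fell. In Padi4 KO, 11 rose and 8 fell, where 8.09% and 8.83% of all genes did. Under scaling by library size alone, 8 rose and 7 fell in WT, beside 630 and 2106 of all genes. In Padi4 KO 11 rose and 11 fell under that scaling, beside 624 and 2072. The 9 that rose in WT (Csf1r, Pid1, Cx3cr1, Cd300e, Adgre4, Adgre1, Lgmn, Mpeg1 and Vcam1) were 9 of the 11 that rose in Padi4 KO, and the 5 that fell in WT (Irf8, Ccr2, F13a1, Emb and Apoe) were 5 of the 8 that fell in Padi4 KO. Over all genes, 70.9% of those that rose in WT and 41.3% of those that fell did so in Padi4 KO. Between genotypes, 9 genes were higher and 4 lower in Padi4 KO without stimulation, where 9.54% and 14.4% of all genes were. These counts moved with the scaling and the filter. With library size alone 13 of the 31 were higher and 2 lower, beside 1901 and 562 of all 12254 genes, and with relative log expression factors 12 were higher and 4 lower, beside 1309 and 1502. With the filter of edgeR's filterByExpr, which kept 22 of the 31, 12 were higher and 4 lower, beside 1117 and 1808. After R848, 12 were higher and 4 lower in Padi4 KO, where 9.44% and 7.84% of all genes were, and with library size alone 14 and 4, beside 1869 and 417 of all genes. Of the higher genes, 7 (Csf1r, Ccr2, F13a1, Ms4a4c, Ms4a6b, Ms4a6c and Ahnak) were called in both treatments, which is 7 of 9 and 7 of 12, and over all genes 590 were higher in both, 50.5% and 51% of those higher in each. DESeq2, the study's own test, called fewer, with 4 higher and 2 lower without stimulation, beside 475 and 586 of all genes, and 2 higher (F13a1 and Ms4a6c) and 4 lower after R848, beside 387 and 621. F13a1 and Ms4a6c were called higher in both treatments. Of the lower genes, Gpr141 and Vcam1 were called in both, 2 of 4 and 2 of 4, and over all genes 513 were lower in both, 29% and 53.4% of those lower in each. The response itself differed between genotypes for 1 gene, Mpeg1, which rose less in Padi4 KO. By edgeR's quasi-likelihood test 0 genes had a higher log2 response in Padi4 KO than in WT, and 0 by DESeq2, with 1 (Spic) at an unadjusted p below 0.05. Over all genes, 3.44% had a higher and 1.26% a lower log2 response. This balance turned with relative log expression factors (160 higher and 233 lower) and with DESeq2 (35 and 90). The median log2 change of the 31 genes was -0.36 with R848 in WT beside -0.17 over all genes, and 0.02 beside -0.03 in Padi4 KO. For Padi4 KO against WT it was 0.13 beside -0.03 without stimulation and 0.46 beside 0.08 after R848. Low genes weigh on these medians. With genes against a group at 0 set at their bound and genes at the floor in both groups left out, they were 0.20 over 25 genes, 0.10 over 30, 0.23 over 28 and 0.49 over 24.

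**Figure D1:**
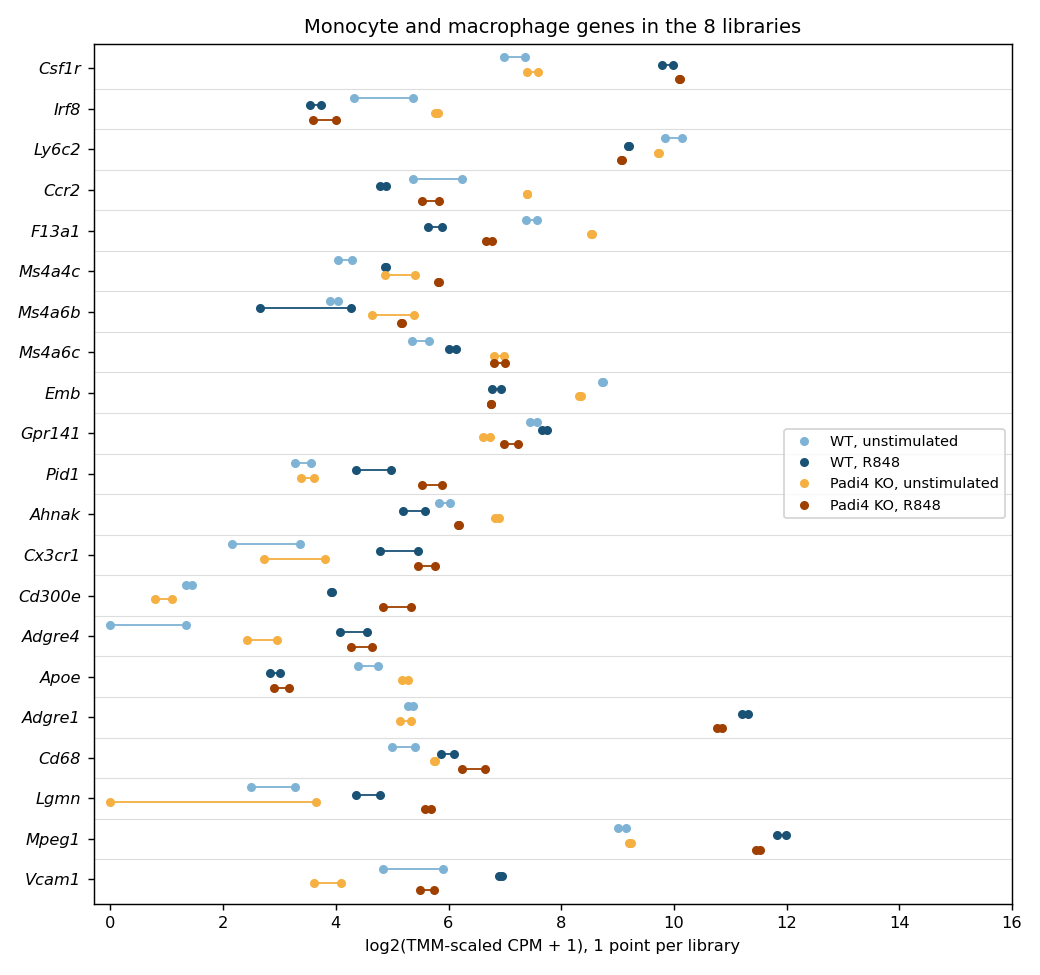
Level of each of the 21 genes with at least 10 counts on average, as log2(TMM-scaled CPM + 1), with 1 point per library and a line joining the 2 libraries of a group. Adgre1, Mpeg1 and Csf1r sit further right after R848 in both genotypes, F13a1 and Emb sit further left, and F13a1, Ccr2 and Ms4a6c sit further right in Padi4 KO than in WT within each treatment.

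Csf1r, the receptor for macrophage colony-stimulating factor, gave one of the clearest responses. Its level was 125 and 162 CPM in unstimulated WT libraries and 878 and 1007 after R848, and 192 and 167 in Padi4 KO libraries without R848 and 1083 and 1101 after R848. The treatments did not overlap. The log2 rise was 2.72 (SE 0.12, adjusted p = 3.4e-118) in WT and 2.62 (SE 0.09, adjusted p = 4e-170) in Padi4 KO. The Padi4 KO libraries were above those of WT within each treatment, but by little: 0.31 (SE 0.14, adjusted p = 0.096) without stimulation and 0.21 (SE 0.08, adjusted p = 0.069) after R848. These last calls were fragile. The call without stimulation was lost without WT replicate 1 (0.13, adjusted p = 0.72) or Padi4 KO replicate 1 (0.24, adjusted p = 0.36). Without WT replicate 2 of the unstimulated cells the difference was 0.50. The call after R848 was lost, and its direction turned, without WT replicate 1 (-0.03, adjusted p = 0.91), and it was lost without Padi4 KO replicate 1 (0.11, adjusted p = 0.63) or 2 (0.10, adjusted p = 0.65) and with relative log expression factors in place of TMM (0.11, adjusted p = 0.44). DESeq2 called neither difference (adjusted p = 0.18 and 0.73). Exons of Csf1r overlap those of Hmgxb3 on the opposite strand over 15.1% of their length, and the strand setting of the counting is not stated.

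Irf8, a transcription factor that directs progenitors towards monocytes and away from granulocytes, went the other way. It stood at 40.2 and 19.0 CPM in unstimulated WT libraries, 12.2 and 10.6 after R848, 55.4 and 52.9 in Padi4 KO libraries without R848 and 15.1 and 11 after R848. It fell by 1.39 on the log2 scale in WT (SE 0.45, adjusted p = 0.011) and by 2.03 in Padi4 KO (SE 0.27, adjusted p = 1.5e-12). Without stimulation it was higher in Padi4 KO by 0.84 (SE 0.27, adjusted p = 0.012), and after R848 the difference was 0.20 (SE 0.49, adjusted p = 0.86). The spread between the WT libraries decided part of this. Without WT unstimulated replicate 1 the fall in WT was -0.73 (adjusted p = 0.49) and the difference between genotypes 1.5, and without replicate 2 that difference was 0.42 (adjusted p = 0.46). Without WT replicate 2 after R848 the fall in WT was -1.19 (adjusted p = 0.14). DESeq2 did not call the fall in WT (adjusted p = 0.13) or the difference between genotypes (adjusted p = 0.27).

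Spic, the factor of iron-recycling macrophages, was close to absent. Its counts were 0 and 2 in unstimulated WT libraries, 2 and 0 after R848, 0 and 0 in Padi4 KO libraries without R848, and 11 and 17 after R848. It was thus above the floor in the R848-treated Padi4 KO libraries alone, at least 7.34-fold higher there than in the unstimulated ones when 3 counts over the group are taken as the floor. After R848 the ratio of Padi4 KO to WT was 7.74 from 28 and 2 counts, with a 95% counting interval of 1.95 to 67.1 (fitted log2 difference 2.65, SE 0.86, adjusted p = 0.019). Without Padi4 KO replicate 2 the adjusted p was 0.20, and without WT replicate 2 it was 0.39 with a difference of 1.52. Without WT replicate 1, when the remaining WT library is at 0, the fitted difference was 6.46.

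Among the 11 genes of classical monocytes, Ly6c2 was the most abundant per kilobase of exon, with 374 ± 53.2 CPM per kb in unstimulated WT libraries (SD, n = 2), and Emb with 61.4 ± 0.404, Gpr141 with 30.2 ± 1.91 and F13a1 with 26.2 ± 2.37 followed. Of the 11 genes, 1 rose and 3 fell in WT (9.09% and 27.3%, against 7.18% and 10.8% of all genes), and 1 rose and 4 fell in Padi4 KO (9.09% and 36.4%, against 8.09% and 8.83%). In each treatment 7 were higher in Padi4 KO (63.6%, against 9.54% and 9.44% of all genes), with 3 lower without stimulation and 1 after R848 (27.3% and 9.09%, against 14.4% and 7.84%). DESeq2 called 4 of the 11 higher without stimulation and 2 after R848, and without WT replicate 2 after R848 the 7 became 2, F13a1 and Ms4a6c. The 1 that rose and the 1 lower after R848 are thus close to the share of all genes. The summed level of the 11 genes, as CPM without TMM scaling, was 2125 and 1990 in unstimulated WT libraries, 954 and 963 after R848, 2672 and 2661 in Padi4 KO libraries without R848 and 1213 and 1219 after R848. With TMM scaling the sums were 2106 and 1930, 1188 and 1140, 2163 and 2127, and 1269 and 1270 CPM, so the genotypes differed far less on that scale than on the first, while the fall with R848 was seen on both.

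The sequence upstream of the transcription start is given for 3 of them, the only ones of the 11 whose RefSeq promoters hold the motif described here. They were shown for that match and do not stand for the list: F13a1 and Ms4a4c were higher in Padi4 KO in both treatments and Ly6c2 was not. Each holds 150 bases that end 1 base before an annotated start (RefSeq, GRCm38.p6), at chr13:37050245-37050394 on the minus strand for F13a1, chr19:11407511-11407660 on the plus strand for Ms4a4c and chr15:75111972-75112121 on the minus strand for Ly6c2. Capitals mark matches to GAGGAA, the core read by the myeloid factor PU.1, and in Ly6c2 to its longer form GAGGAAGT, which contains it.
F13a1: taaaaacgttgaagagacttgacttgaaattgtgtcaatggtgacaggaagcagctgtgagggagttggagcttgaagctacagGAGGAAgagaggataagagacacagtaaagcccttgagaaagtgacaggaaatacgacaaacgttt
Ms4a4c: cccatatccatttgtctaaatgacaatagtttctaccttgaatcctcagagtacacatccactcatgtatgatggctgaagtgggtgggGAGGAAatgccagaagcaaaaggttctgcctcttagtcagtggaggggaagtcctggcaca
Ly6c2: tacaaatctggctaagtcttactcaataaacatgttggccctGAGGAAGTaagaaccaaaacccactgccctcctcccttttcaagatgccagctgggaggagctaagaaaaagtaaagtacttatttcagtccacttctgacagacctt
Within 250 bases upstream, on either strand, GAGGAA was found in 12 of the 33 promoters that RefSeq gives for 27 of the 31 genes, and in 23.3% of all 32851 promoters. The longer GAGGAAGT was found in 3 of the 33, in Ly6c2 and C1qc, and in 2.44% of all promoters. The overlapping promoters of Ly6c2 count a shared site more than once. The search also covered the AP-1 and NF-kB motifs, found in 1 of the 33 each (6.75% and 4.77% of all promoters). A repeat read by IRF factors was found in 0 of the 33 (2.98% of all promoters). The 150 bases before a second annotated start of F13a1 hold no match. These are matches of letters and not measured binding.

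F13a1, the A subunit of coagulation factor XIII and an abundant transcript of classical monocytes, fell with R848 and was higher in Padi4 KO. Its level was 165 and 188 CPM in unstimulated WT libraries, 49.0 and 58.4 after R848, 370 and 375 in Padi4 KO libraries without R848 and 100 and 108 after R848. No group overlapped another. It fell by 1.70 on the log2 scale with R848 in WT (SE 0.20, adjusted p = 7.6e-16) and by 1.83 in Padi4 KO (SE 0.12, adjusted p = 8.1e-55), and it was higher in Padi4 KO by 1.08 without stimulation (SE 0.12, adjusted p = 4.3e-17) and by 0.95 after R848 (SE 0.21, adjusted p = 9.8e-05).

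Ccr2, the receptor for the chemokine Ccl2, stood at 40.2 and 74.2 CPM in unstimulated WT libraries, 28.6 and 26.5 after R848, 167 and 166 in Padi4 KO libraries without R848 and 45.3 and 56.0 after R848. The genotypes did not overlap within a treatment. It was higher in Padi4 KO by 1.56 (SE 0.18, adjusted p = 7.6e-16) without stimulation and by 0.88 (SE 0.29, adjusted p = 0.022) after R848. It fell by 1.72 with R848 in Padi4 KO (SE 0.16, adjusted p = 9.3e-27) and by 1.03 in WT (SE 0.31, adjusted p = 0.0054). The fall in WT lay at the edge of 2-fold and was not called without WT unstimulated replicate 2 (-0.55, adjusted p = 0.40) or without replicate 1 (-0.94) or 2 (-0.88) after R848. The difference after R848 was not called without WT replicate 1 (0.78, adjusted p = 0.18), WT replicate 2 (0.74, adjusted p = 0.25) or Padi4 KO replicate 2 (0.62, adjusted p = 0.27). DESeq2 called neither that difference (0.78, adjusted p = 0.25) nor the fall in WT, which was under 2-fold there (-0.97).

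The genes Ms4a4c, Ms4a6b and Ms4a6c encode membrane proteins of the Ms4a cluster on chromosome 19 that are abundant in monocytes. Ms4a6c stood at 49.5 and 39.7 CPM in unstimulated WT libraries, 69.4 and 63.7 after R848, 125 and 111 in Padi4 KO libraries without R848 and 111 and 127 after R848. Ms4a4c stood at 18.6 and 15.5, 28.6 and 28.3, 28.3 and 41.3, and 55.1 and 56.0 CPM in the same order. Ms4a6b stood at 15.5 and 13.8, 18.4 and 5.31, 40.7 and 23.9, and 34.6 and 34.9 CPM. In all 3 the Padi4 KO libraries were above the WT libraries of the same treatment, and none had a called response to R848. The difference between genotypes was 1.38 for Ms4a6c without stimulation (SE 0.20, adjusted p = 7.7e-10) and 0.84 after R848 (SE 0.19, adjusted p = 0.0003). For Ms4a4c it was 1.07 (SE 0.33, adjusted p = 0.010) and 0.96 (SE 0.28, adjusted p = 0.0074), and for Ms4a6b 1.05 (SE 0.36, adjusted p = 0.025) and 1.60 (SE 0.40, adjusted p = 0.0011). The Ms4a6c calls held without each library in turn. Those of Ms4a4c were lost without WT replicate 2 (0.96, adjusted p = 0.12) or Padi4 KO replicate 2 (0.73, adjusted p = 0.30) of the unstimulated cells and without WT replicate 1 (0.83, adjusted p = 0.13) or 2 (0.88, adjusted p = 0.13) after R848. Ms4a6b lost its call without WT replicate 1 (1.14, adjusted p = 0.12), WT replicate 2 (0.98, adjusted p = 0.16) or Padi4 KO replicate 1 (0.72, adjusted p = 0.28) of the unstimulated cells. After R848 its difference was 0.84 (adjusted p = 0.31) without WT replicate 2 and 2.54, still called, without WT replicate 1. DESeq2 called both differences of Ms4a6c and neither of Ms4a4c (adjusted p = 0.16 and 0.27) and Ms4a6b (adjusted p = 0.22 and 0.13). Exons of Ms4a6c overlap the opposite-strand gene BE692007 over 53.1% of their length, and the copies share sequence, with 5.85% of the 50-base words of Ms4a6c also found in Ms4a6b and 7.73% of those of Ms4a4c in Ms4a4b, so the counts of these genes are uncertain.

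Ahnak, a very large scaffold protein, stood at 55.7 and 63.8 CPM in unstimulated WT libraries, 46.9 and 35.4 after R848, 118 and 112 in Padi4 KO libraries without R848 and 71.1 and 71.7 after R848. It was higher in Padi4 KO by 0.94 (SE 0.19, adjusted p = 1.8e-05) and after R848 by 0.81 (SE 0.24, adjusted p = 0.0099). Without WT replicate 2 the difference after R848 was 0.52 (adjusted p = 0.35), and with DESeq2 it was 0.70 (adjusted p = 0.22). Ly86, a secreted partner of a Toll-like receptor relative, had 8 and 4 counts in unstimulated WT libraries, 2 and 1 after R848, 24 and 28 in Padi4 KO libraries without R848 and 2 and 4 after R848. It was higher in Padi4 KO by 1.22 without stimulation (SE 0.45, adjusted p = 0.035), which was lost without WT replicate 2 (0.89, adjusted p = 0.32) or Padi4 KO replicate 1 (1.06, adjusted p = 0.16) and with DESeq2 (adjusted p = 0.34). It fell by 3.02 with R848 in Padi4 KO (SE 0.50, adjusted p = 1.8e-08). In WT it went from 12 to 3 counts over the 2 libraries, a ratio of 0.235 with a 95% counting interval of 0.0426 to 0.872 and no call. Ly86 was thus near its floor after R848 in both genotypes.

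Pid1, an adaptor with a phosphotyrosine interaction domain, was the 1 gene of the classical list that rose. It stood at 10.8 and 8.63 CPM in unstimulated WT libraries, 30.6 and 19.5 after R848, 11.3 and 9.43 in Padi4 KO libraries without R848 and 57.7 and 45.0 after R848. The rise was 1.32 in WT (SE 0.49, adjusted p = 0.030) and 2.32 in Padi4 KO (SE 0.29, adjusted p = 4.3e-14), and after R848 it was higher in Padi4 KO by 1.06 (SE 0.30, adjusted p = 0.0056). The genotypes overlapped without stimulation and not after R848. The rise in WT was not called without unstimulated replicate 2 (1.18, adjusted p = 0.15) or R848 replicate 1 (1.12, adjusted p = 0.22), and the difference after R848 was 0.67 (adjusted p = 0.32) without WT replicate 2 and 0.76 (adjusted p = 0.19) without Padi4 KO replicate 1. DESeq2 called neither the rise in WT (adjusted p = 0.11) nor that difference (adjusted p = 0.30).

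The rest of the classical list was called higher in Padi4 KO in at least 1 treatment, and Ly6c2, Emb and Gpr141 in neither. Ly6c2, which encodes the surface antigen Ly-6C of classical monocytes, stood at 1127 and 921 CPM in unstimulated WT libraries, 578 and 591 after R848, 845 and 853 in Padi4 KO libraries without R848 and 537 and 536 after R848. Its change with R848, -0.81 (SE 0.09, adjusted p = 1.4e-17) in WT and -0.66 (SE 0.08, adjusted p = 4.4e-15) in Padi4 KO, was under 2-fold and thus not called. It was lower in Padi4 KO without stimulation by a log2 difference of -0.27 (SE 0.08, adjusted p = 0.0058), and this direction turned to 0.01 (adjusted p = 0.95) when libraries were scaled by their size alone and it was -0.12 (adjusted p = 0.57) without WT replicate 1. With DESeq2 its adjusted p was 0.27. Its near-identical copy Ly6c1 had at most 2 counts in any library, and 13.9% of the 50-base words of Ly6c2 occur in Ly6c1.

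Emb is a partner of monocarboxylate transporters. Its exons overlap Gm17509 on the opposite strand over 9.93% of their length, and 4.68% of its 50-base words occur in Rnf7, so its counts are uncertain. It stood at 422 and 426 CPM in unstimulated WT libraries, 120 and 108 after R848, 325 and 318 in Padi4 KO libraries without R848 and 107 and 107 after R848. It fell by 1.90 in WT (SE 0.14, adjusted p = 4.7e-38) and by 1.59 in Padi4 KO (SE 0.12, adjusted p = 1.5e-39), to levels that did not differ between genotypes by the test (-0.09, SE 0.17, adjusted p = 0.82). Without stimulation it was lower in Padi4 KO (-0.40, SE 0.10, adjusted p = 0.0012), which was -0.11 (adjusted p = 0.53) with libraries scaled by size alone and -0.34 (adjusted p = 0.18) with DESeq2. Gpr141, an orphan G protein-coupled receptor, stood at 189 and 173 CPM, 214 and 202, 105 and 97.2, and 149 and 125 CPM in the order given for Emb. It had no called response and was lower in Padi4 KO in both treatments, by log2 differences of -0.85 (SE 0.15, adjusted p = 3.4e-07) and -0.60 (SE 0.14, adjusted p = 0.00047). These calls of Gpr141 held without each library in turn.

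**Figure D2:**
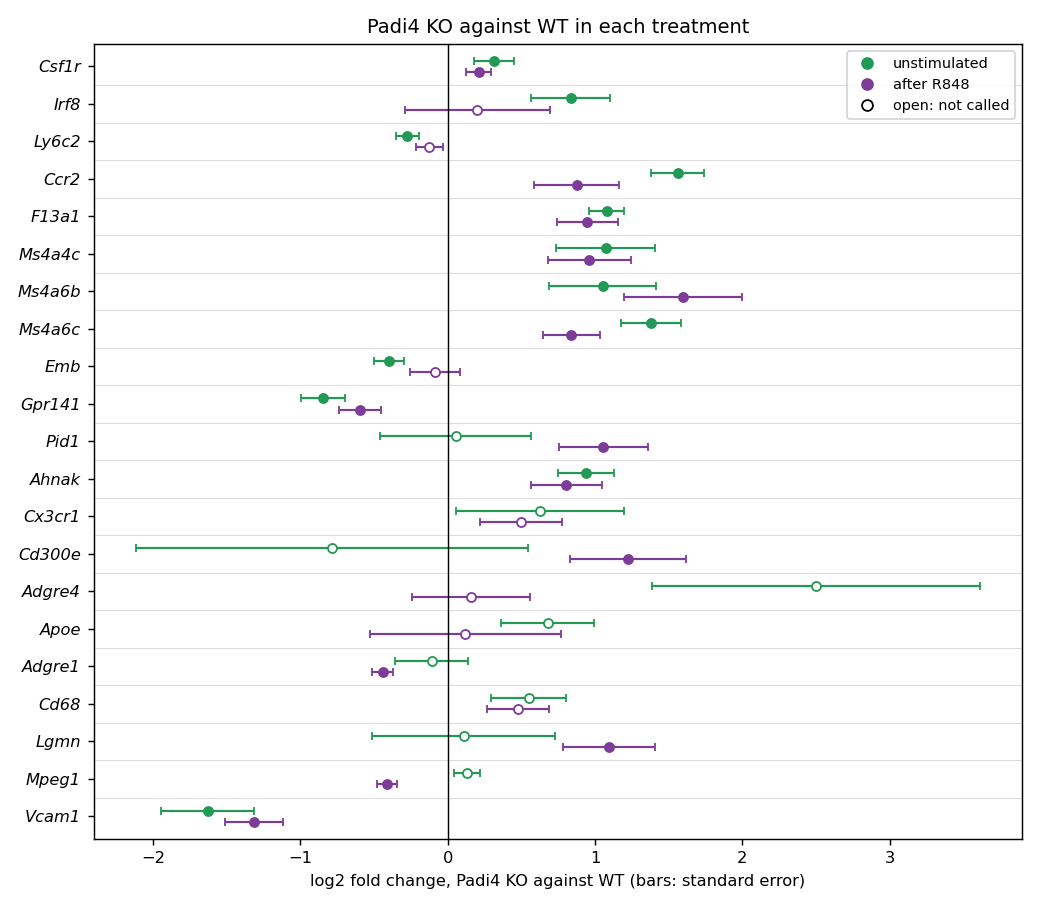
Log2 fold change of Padi4 KO against WT for the 21 genes with at least 10 counts on average, without stimulation and after R848, with bars of 1 standard error and filled points where the adjusted p was below 0.1. F13a1 and Ms4a6c lie right of 0 in both treatments and Gpr141 left of 0 in both. The other 8 filled points right of 0 after R848 (Csf1r, Ccr2, Ms4a4c, Ms4a6b, Pid1, Ahnak, Cd300e and Lgmn) were not called by DESeq2, nor without at least 1 of the libraries.

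The 4 genes of patrolling monocytes and scavenger receptors started near the floor and rose with R848, 3 of 4 in WT and 4 of 4 in Padi4 KO, where 7.18% and 8.09% of all genes rose. Their sum was 12.5 and 5.33 CPM of all counts on genes in unstimulated WT libraries, 65.6 and 49.3 after R848, 18.1 and 26.3 in Padi4 KO libraries without R848 and 120 and 95.2 after R848. Cx3cr1, the fractalkine receptor, had 6 and 2 counts in unstimulated WT libraries, 21 and 15 after R848, 5 and 18 in Padi4 KO libraries without R848 and 60 and 47 after R848. It rose by 2.36 in WT (SE 0.49, adjusted p = 1.8e-05) and by 2.24 in Padi4 KO (SE 0.30, adjusted p = 1e-12). With each library left out in turn the rise was between 1.86 and 3.25 in WT and between 1.87 and 3.06 in Padi4 KO. Cx3cr1 was not called between genotypes in either treatment (0.63, adjusted p = 0.52, and 0.50, adjusted p = 0.28).

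Cd300e, an activating receptor of monocytes, had 1 count in each of the 4 unstimulated libraries, 7 and 8 in WT after R848 and 44 and 30 in Padi4 KO after R848. The ratio of R848 to unstimulated was 7.06 in WT with a 95% counting interval of 1.64 to 63.6 (adjusted p = 0.0027) and 29.1 in Padi4 KO with an interval of 7.78 to 245 (adjusted p = 7e-18). After R848 it was higher in Padi4 KO by 1.22 on the log2 scale (SE 0.39, adjusted p = 0.017), and 3 of the 4 libraries decided that call, with 1.09 (adjusted p = 0.16) without WT replicate 1, 1.14 (adjusted p = 0.17) without WT replicate 2 and 0.84 (adjusted p = 0.30) without Padi4 KO replicate 1. DESeq2 did not call it (adjusted p = 0.40). Adgre4, an adhesion receptor of the same family as Adgre1, had 1 and 0 counts, 11 and 9, 6 and 6, and 27 and 20 in unstimulated WT, R848-treated WT, unstimulated Padi4 KO and R848-treated Padi4 KO libraries. Its ratio in WT was 18.8 with an interval of 3.01 to 780, and in Padi4 KO it rose by 1.97 on the log2 scale (SE 0.43, adjusted p = 4.2e-05). Its fitted rise in WT was 4.31 and became 7.06 without unstimulated replicate 1, when the remaining library is at 0.

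Cd36, a scavenger receptor for lipids, had no count in unstimulated WT libraries, 1 and 1 after R848, 1 and 4 in Padi4 KO libraries without R848 and 11 and 11 after R848. It rose in Padi4 KO by 2.10 (SE 0.68, adjusted p = 0.0085). After R848 the ratio of Padi4 KO to WT was 6.08 from 22 and 2 counts, with a 95% counting interval of 1.5 to 53.4 (fitted log2 difference 2.30, adjusted p = 0.073). That call was lost without any 1 of the 4 libraries, at adjusted p-values between 0.18 and 0.32. DESeq2 did not call the rise in Padi4 KO (adjusted p = 0.29).

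The C1q chains, Axl, Mertk, Mrc1 and Hpgd, which resident macrophages express, were at or near the floor, unlike Adgre1 and Vcam1. C1qa, C1qb and C1qc, the chains of complement C1q, had between 0 and 3 counts in each library, with 9 counts over the 3 genes in unstimulated WT libraries, 13 in Padi4 KO libraries without R848, 1 in WT after R848 and 2 in Padi4 KO after R848. C1qb went from 5 counts to 0 with R848 in Padi4 KO, at least 2.12-fold lower (adjusted p = 0.083), a call lost without any 1 of the 4 libraries (adjusted p between 0.16 and 0.23). The receptors for dying cells Axl and Mertk and the mannose receptor Mrc1 had between 0 and 5 counts in each library and no call in any comparison. Hpgd, which breaks down prostaglandins, had 1 and 2 counts in unstimulated WT libraries, 2 and 6 in Padi4 KO libraries without R848 and none after R848. Its fall in Padi4 KO was at least 3.39-fold (adjusted p = 0.020), and was not called without unstimulated replicate 2 (adjusted p = 0.22) or R848 replicate 1 (adjusted p = 0.10). A count of 0 in 1 library still allows up to 5.33 CPM.

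Apoe, a lipid carrier that macrophages secrete, was above the floor. It stood at 20.1 and 25.9 CPM in unstimulated WT libraries, 6.12 and 7.08 after R848, 35.0 and 37.7 in Padi4 KO libraries without R848 and 8.00 and 6.43 after R848. The treatments did not overlap. It fell by 1.76 with R848 in WT (SE 0.56, adjusted p = 0.0086) and by 2.32 in Padi4 KO (SE 0.35, adjusted p = 4.1e-10), and was not called between genotypes (0.68, SE 0.32, adjusted p = 0.12 without stimulation).

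Adgre1 and Mpeg1 made up most of the counts of the whole list after R848. Adgre1 encodes the adhesion receptor used as the standard surface marker of mouse macrophages. It stood at 40.2 and 38.0 CPM in unstimulated WT libraries, 2531 and 2357 after R848, 39.6 and 34.1 in Padi4 KO libraries without R848 and 1858 and 1738 after R848. The rise was 5.96 on the log2 scale in WT (SE 0.13) and 5.63 in Padi4 KO (SE 0.12), with adjusted p-values too small to be represented. After R848 it was lower in Padi4 KO (-0.44, SE 0.07, adjusted p = 3.3e-08). Without stimulation the log2 difference was -0.11 (SE 0.25, adjusted p = 0.85). Per kilobase of exon it went from 12.1 ± 0.492 to 755 ± 38.0 CPM per kb in WT, and in Padi4 KO it went from 11.4 ± 1.2 to 555 ± 26.1 (SD, n = 2), and after R848 only Mpeg1 among the 31 genes was more abundant per kilobase.

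Mpeg1, a pore-forming protein of phagosomes, was already high without stimulation. It stood at 566 and 516 CPM in unstimulated WT libraries, 4058 and 3626 after R848, 600 and 586 in Padi4 KO libraries without R848 and 2948 and 2814 after R848. It rose by 2.83 in WT (SE 0.08, adjusted p = 1.7e-259) and by 2.28 in Padi4 KO (SE 0.07, adjusted p = 6.9e-203). Its response in Padi4 KO was smaller than in WT by -0.54 (SE 0.11, adjusted p = 0.00015), the 1 called difference of response among the 31 genes, and this value was between -0.85 and -0.48 with each library left out in turn, -0.85 being that without WT replicate 2 after R848. After R848 its level was lower in Padi4 KO (-0.41, SE 0.07, adjusted p = 3.8e-08), and without stimulation the log2 difference was 0.13 (SE 0.09, adjusted p = 0.34).

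Vcam1, the vascular adhesion molecule that marrow macrophages and stromal cells also carry, was lower in Padi4 KO. It stood at 58.8 and 27.6 CPM in unstimulated WT libraries, 122 and 119 after R848, 11.3 and 16 in Padi4 KO libraries without R848 and 52.4 and 44.1 after R848. It rose by 1.45 in WT (SE 0.23, adjusted p = 4.1e-09) and by 1.76 in Padi4 KO (SE 0.27, adjusted p = 9.7e-10). With each library left out in turn the rise was between 1.03 and 2.12 in WT and between 1.49 and 2.08 in Padi4 KO. The log2 difference of Vcam1 between Padi4 KO and WT was -1.63 (SE 0.32, adjusted p = 6.4e-06) without stimulation and -1.31 (SE 0.20, adjusted p = 1.4e-09) after R848. The first was -0.96 (adjusted p = 0.18) without WT replicate 1.

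Lgmn and Cd68 encode lysosomal proteins, a protease and a glycoprotein. Lgmn stood at 4.64 and 8.63 CPM in unstimulated WT libraries, 26.5 and 19.5 after R848, 0 and 11.6 in Padi4 KO libraries without R848 and 50.6 and 46.8 after R848. It rose by 1.78 in WT (SE 0.55, adjusted p = 0.0068) and by 2.77 in Padi4 KO (SE 0.33, adjusted p = 4e-16), and after R848 it was higher in Padi4 KO by 1.09 (SE 0.31, adjusted p = 0.0059). The rise in WT was 1.38 (adjusted p = 0.13) without unstimulated replicate 1, the rise in Padi4 KO was 8.24 without unstimulated replicate 2, when the remaining library is at 0, and the difference after R848 was 0.80 (adjusted p = 0.23) without WT replicate 2. DESeq2 called neither the rise in WT (adjusted p = 0.33) nor that difference (adjusted p = 0.74). Cd68 stood at 30.9 and 41.4, 57.2 and 67.2, 53.1 and 52.2, and 99.5 and 74.4 CPM in the order given for Lgmn. Its R848 libraries were above the unstimulated ones in each genotype by less than 2-fold, 0.80 in WT (SE 0.28, adjusted p = 0.021) and 0.73 in Padi4 KO (SE 0.17, adjusted p = 0.0002), and it was not called between genotypes.

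**Figure D3:**
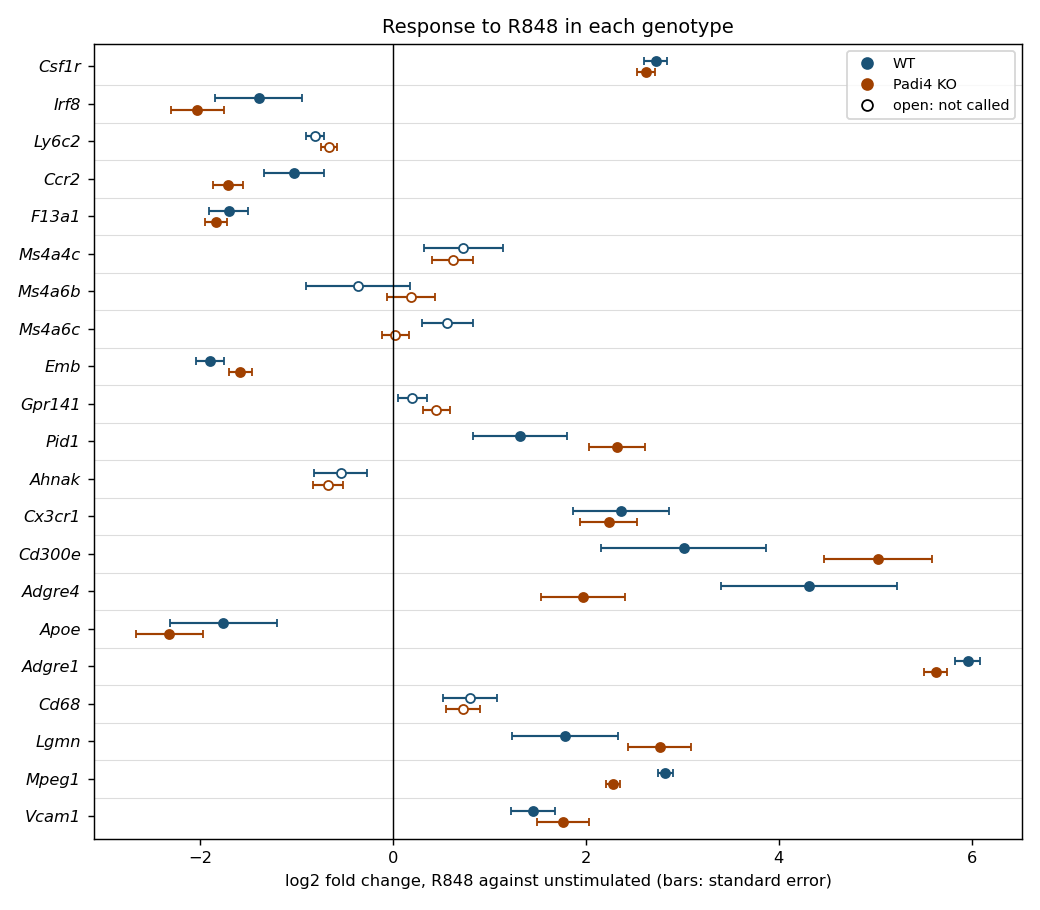
Log2 fold change of R848 against unstimulated for the 21 genes with at least 10 counts on average, in WT and in Padi4 KO, with bars of 1 standard error and filled points where the adjusted p was below 0.1 and the change over 2-fold. Adgre1 lies furthest right at 5.96 and 5.63, and Irf8, Ccr2, F13a1, Emb and Apoe lie left of 0 in both genotypes.

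Markers of other cells moved with genotype and with R848 beside these genes. Of the 17 neutrophil markers tested, 16 were lower in Padi4 KO without stimulation and 15 after R848 (94.1% and 88.2%, against 14.4% and 7.84% of all genes), with median log2 differences of -0.64 and -0.63, and their sum was between 172470 and 178818 CPM of all counts on genes in unstimulated WT libraries and between 138874 and 140412 in Padi4 KO libraries without R848. After R848 it was between 160812 and 174027 in WT and between 129127 and 129709 in Padi4 KO. Of the 15 erythroid markers tested, 14 were higher in Padi4 KO without stimulation and 15 after R848 (93.3% and 100%, against 9.54% and 9.44% of all genes). Their sum was between 34.4 and 187 CPM in the WT libraries and between 1693 and 1845 in the Padi4 KO libraries, led by Car2, Slc4a1 and Tfrc, and Slc4a1 had between 2 and 8 counts in WT against 140 to 544 in Padi4 KO. In WT 9 of the 15 fell with R848 (60%, against 10.8% of all genes), and the sum of all 15 went from 187 and 151 CPM to 65.6 and 34.4. In Padi4 KO edgeR's test called 3 that rose (20%, against 8.09%) and 0 that fell by over 2-fold, with 1 at an unadjusted p below 0.05, Car1, which was lower by less than that (-0.77, adjusted p = 2.6e-06) and was named after its values were seen. Of the 8 stromal and endothelial markers tested, 3 were higher in Padi4 KO without stimulation and 1 after R848 (37.5% and 12.5%, against 9.54% and 9.44% of all genes), so that the share after R848 was near that of all genes. The sum over the 12 listed markers of these cells was between 231 and 275 CPM in unstimulated WT libraries, 627 and 783 in Padi4 KO libraries without R848, and 37.4 to 56.4 CPM after R848 over both genotypes. Of the 8 tested, 4 fell in each genotype (50%, against 10.8% of all genes in WT and 8.83% in Padi4 KO). Of the 17 neutrophil markers, 5 fell and 1 rose with R848 in WT (29.4% and 5.88%, against 10.8% and 7.18% of all genes). In Padi4 KO 4 fell and 1 rose (23.5% and 5.88%, against 8.83% and 8.09%), so that the share that rose was near that of all genes in both genotypes. The 1 that rose was Lcn2 in both (1.49 and 1.65), and those that fell included the granule genes of immature cells Mpo (-2.11 and -2.71), Elane (-1.42 and -1.76) and Prtn3 (-1.27 and -1.95). Mmp8, with more counts than Mpo, Elane and Prtn3, fell as well (-1.56 and -1.45). These genes were named after their values were seen. Of the 6 tested markers of B, T and NK cells, the 3 of plasmacytoid dendritic cells and the 10 of eosinophils, basophils and mast cells, edgeR's test called 0 higher in Padi4 KO in either treatment, with 1, of plasmacytoid dendritic cells, at an unadjusted p below 0.05. Lower in Padi4 KO without stimulation were 1 of the 6 markers of B, T and NK cells and 1 of the 10 of eosinophils, basophils and mast cells (16.7% and 10%, near the 14.4% of all genes), and after R848 2 of these 10 (20%, against 7.84%). What part these markers have in the differences of the monocyte and macrophage genes was not tested.

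**Figure D4:**
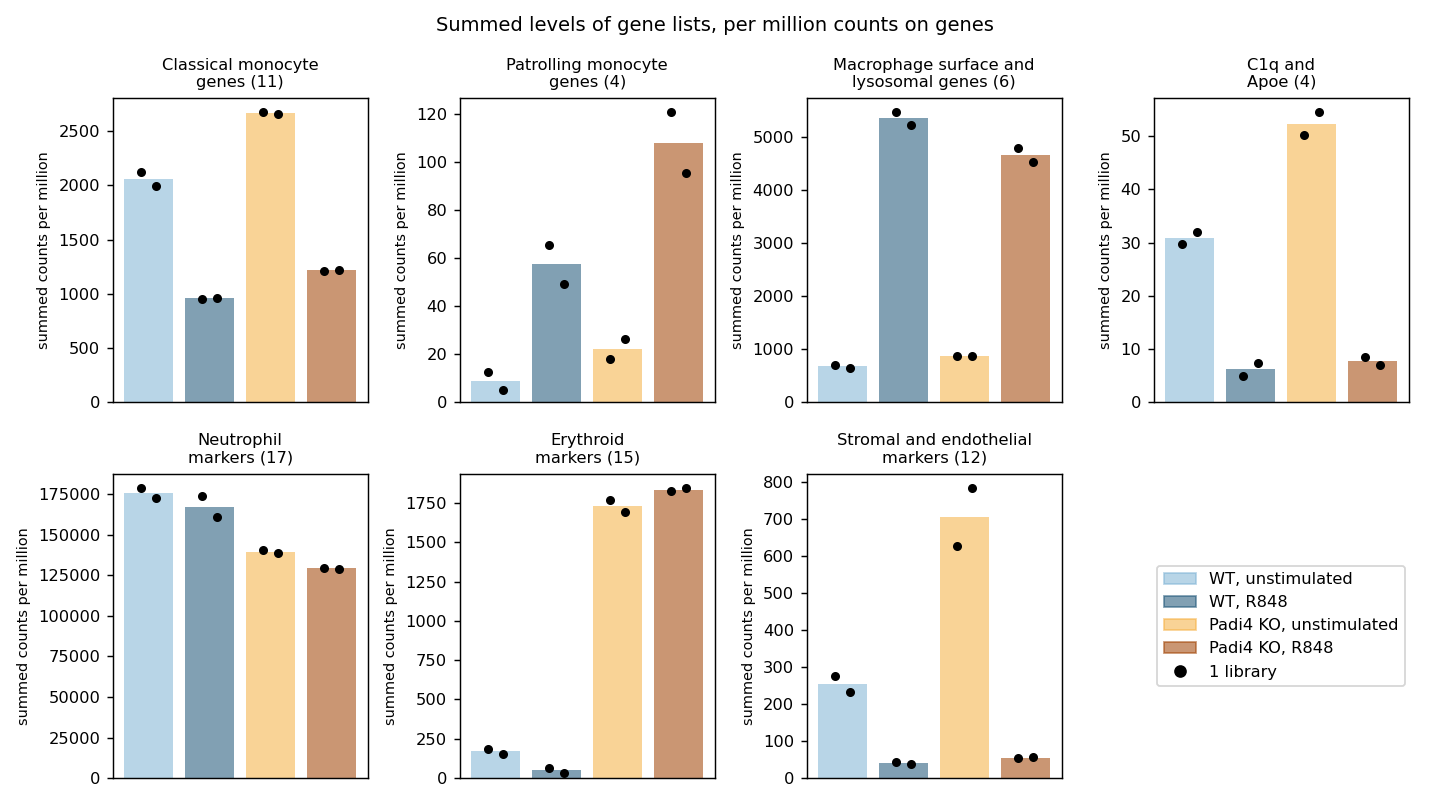
Summed CPM of each list of genes, relative to all counts on genes of the library, with bars for the mean of the 2 libraries of a group and points for each library, each panel with its own axis from 0. The summed level of the 11 classical monocyte genes, of which Ly6c2, Emb and F13a1 are lower after R848 in both genotypes and Ms4a4c, Gpr141 and Pid1 are not, sits lower after R848 and, on this scale without TMM factors, higher in Padi4 KO, the macrophage surface and lysosomal genes sit higher after R848 (654 to 881 CPM against 4528 to 5456), and the erythroid markers sit at 1693 CPM or more in the Padi4 KO libraries.

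Other genes of mononuclear phagocytes gave a similar mixture of directions. Of 55 listed, 48 were tested. In WT, 12 rose and 7 fell with R848 (25% and 14.6%, against 7.18% and 10.8% of all genes), and in Padi4 KO 16 rose and 11 fell (33.3% and 22.9%, against 8.09% and 8.83%). In Padi4 KO against WT, 10 were higher and 9 lower without stimulation (20.8% and 18.8%, against 9.54% and 14.4%), and 9 were higher and 5 lower after R848 (18.8% and 10.4%, against 9.44% and 7.84%). The shares that fell in WT and were lower in Padi4 KO are thus near those of all genes. Cd14, the co-receptor for lipopolysaccharide, rose by 7.75 in WT (SE 0.15) and by 5.68 in Padi4 KO (SE 0.13), a smaller response by -2.07 (SE 0.35, adjusted p = 3.8e-06), and was lower in Padi4 KO after R848 (-1.06, SE 0.07, adjusted p = 1.3e-45). Nr4a1, a nuclear receptor of patrolling monocytes and an early response gene, rose by 5.61 in WT and 4.48 in Padi4 KO and was lower in Padi4 KO after R848 (-1.45, SE 0.10, adjusted p = 2.1e-46). Csf1, the ligand of Csf1r, rose by 2.49 in WT and was not called in Padi4 KO (0.64, adjusted p = 0.11). Its response in Padi4 KO was smaller by -1.85 (SE 0.43, adjusted p = 0.0019). Csf1 was lower in Padi4 KO after R848 as well (-2.42, SE 0.22, adjusted p = 1.7e-25).

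Fibronectin (Fn1) and Tgfbi, both secreted by monocytes, fell with R848, with log2 changes of -3.62 and -3.11 in WT and -2.70 and -1.98 in Padi4 KO. Their response was less negative in Padi4 KO, by 0.92 (SE 0.24, adjusted p = 0.0082) and 1.12 (SE 0.21, adjusted p = 1.5e-05), and they were higher in Padi4 KO after R848 by 1.68 and 1.26. Ifi30 fell as well, with changes of -1.49 in WT and -2.09 in Padi4 KO, and so did Klf4, with -2.49 in WT and from 87 to 2 counts in Padi4 KO. Clec4a1, Ms4a6d, Marco and Maf rose in both genotypes. Clec4a1 rose by 4.15 and 3.98 in WT and Padi4 KO. Ms4a6d went from 2 to 34 counts over the WT libraries, a ratio of 16 with a 95% counting interval of 4.1 to 137, and rose by 3.19 in Padi4 KO. Marco went from 3 to 35 counts in WT, a ratio of 11 with an interval of 3.46 to 55.8, and from 0 to 81 in Padi4 KO, at least 21.2-fold higher. Maf went from 1 to 17 counts in WT and rose by 4.13 in Padi4 KO. Without stimulation Clec4a3, Pld4 and Ifi30 were higher in Padi4 KO by 1.51, 1.32 and 1.29. Ms4a6d was higher by a ratio of 7.94 from 24 and 2 counts, with an interval of 1.97 to 69.3 (fitted log2 difference 2.60). Stab1, Tlr7 and Clec12a were lower by log2 differences of -2.20, -1.48 and -0.70. The call of Marco as lower rests on 3 counts against 0, both at the floor, so it has no fold. After R848 Ms4a6d and Maf were higher by 1.60 and 1.34, and Clec12a lower (-0.36, adjusted p = 0.089). The log2 response of Stab1 and Sirpa was higher in Padi4 KO than in WT by 3.12 and 0.40, and that of Plac8 lower (-0.77). Tlr7, lower in Padi4 KO libraries without R848 (SE 0.25, adjusted p = 1.3e-07), encodes the receptor for R848.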

How the data were processed

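RNA of magnetically isolated bone marrow neutrophils was sequenced as paired ends on a MiSeq. Per the labels and the study's methods, the authors checked reads with FastQC 0.11.7, trimmed them with cutadapt 1.16, removed reads of low quality, mapped the rest to mm10 with STAR 2.5.3a and counted them on genes with HTSeq 0.6.1p1. The deposited values are raw counts per gene symbol. The annotation and the strand setting are not given in the sources used here. The summary lines at the end of the table, between 10.6% and 13.0% of the reads of each library, name no gene and were left out.

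Groups and replicate numbers were taken from the labels. The counts were fitted by edgeR 4.0.16 (limma 3.58.1, R 4.3.3) with 1 mean per group, TMM factors (0.80 to 1.25) and the robust quasi-likelihood test, over genes with at least 1 count in at least 2 libraries. The Benjamini-Hochberg adjustment ran over all genes tested. The study's own test, the Wald test of DESeq2, was run as an alternative with DESeq2 1.42.0. A response was called at an adjusted p below 0.1 and over 2-fold, other contrasts at an adjusted p below 0.1. SE was obtained from the log2 fold change and its F statistic. Intervals of ratios are exact 95% intervals that cover counting error only. Gene positions, exon overlaps and shared 50-base words were taken from the GRCm38 annotation. The fit was tested on simulated data with known large changes, placed in the WT R848 libraries alone and in well-counted genes. Smaller differences and genes with few counts were not covered.

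The 31 genes and the marker lists were chosen with earlier results of these data known. Genes with at least 10 counts on average are given with all libraries, the others by their counts. Of other phagocyte genes, at most 4 called genes per comparison and direction with the largest change and at least 10 counts on average are named, and of the other lists at most 3 with the highest counts. Lcn2, Mpo, Elane, Prtn3, Mmp8 and Car1 are named besides these, after their values were seen. The alternatives were DESeq2, other filters and scalings, a replicate block, other thresholds and leaving out each library. The labels do not say whether equal replicate numbers share a mouse or a day. The correlations of same-numbered deviations were between -0.02 and 0.02. They cannot exclude such a pairing, since sampling noise makes up much of each deviation. Replicates of a group differed by more than sampling noise (chi-square per degree of freedom 1.05 to 1.67). Protein sequences were not used here.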

Additional observations from a re-analysis of the deposited data

Results flagged for a closer look

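Mpeg1 is singled out because its response to R848 differed between the genotypes by a test of the difference itself. The log2 response in Padi4 KO was lower than in WT by -0.54 (edgeR's quasi-likelihood test, adjusted p = 0.00015), with a rise in both R848 libraries of both genotypes. Groups of 2 libraries are too small for a check of single libraries that stand apart.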

How the results depend on the processing

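With 2 libraries a group, p-values rest on a spread shared across genes, and genes under 10 counts on average give wide intervals. Of 720 alternative values of 63 calls, 639 kept their direction and their side of the threshold, 79 lost the call and 2 changed direction. Of the 63 calls, 38 held under every alternative that gave a value. The 33 values without a fold threshold could not lose a call. A gene removed by a filter or without an adjusted p gave no value, so these totals can overstate how well the calls held. Scaling by library size alone moved the median of all genes to -0.47 and -0.41 for the R848 responses in WT and Padi4 KO and to 0.22 and 0.30 for Padi4 KO against WT without and with R848. Under it Ly6c2 turned to 0.014 without stimulation and 2 genes were lower in Padi4 KO. DESeq2 called 3 genes that fell in WT, 4 higher and 2 lower in Padi4 KO without stimulation, and 2 higher after R848 (F13a1 and Ms4a6c). Between 7 and 21 genes had no adjusted p there, and the cause was not tested for the others. Without each library in turn, by construction with fewer samples, the genes that rose and fell were 8 to 9 and 3 to 4 in WT and 11 to 11 and 6 to 7 in Padi4 KO. Those higher and lower in Padi4 KO were 5 to 8 and 2 to 5 without stimulation and 3 to 9 and 4 to 5 after R848. The lowest counts were those without WT R848 replicate 2 (3 that fell, 3 higher), WT unstimulated replicate 2 (5 higher) and WT unstimulated replicate 1 (2 lower). Without WT R848 replicate 1, 7 were higher after R848. Genes with a higher and lower log2 response in Padi4 KO were 0 to 1 and 1 to 1, the 1 higher without WT unstimulated replicate 1, Padi4 KO unstimulated replicate 2 or WT R848 replicate 1. Csf1r after R848 was between -0.0269 and 0.24. The lone library left in a group is assumed to vary like the other groups. With the replicate block the counts were 9 and 5 in WT, 11 and 7 in Padi4 KO, 9 and 4, 12 and 4, and 0 and 1, with C1qb in Padi4 KO and Csf1r without stimulation lost. The summed level of the 31 genes was 2966, 7154, 3915 and 7060 CPM of the library total (WT unstimulated, WT R848, Padi4 KO unstimulated, Padi4 KO R848). Without Mpeg1 it was 2415, 3993, 3178 and 4302, and with TMM scaling 8690, 3149 and 7372 in the last 3, which is lower in Padi4 KO than in WT after R848.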
